A study of Arabidopsis thaliana with 21 samples.

Results

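Leaves fed LiCl were compared with leaves fed buffer alone, using the 3 LiCl libraries and the 3 control libraries of a series of 21 messenger RNA libraries. Every gene of the deposited table entered: of 21156 loci listed, 17587 passed a filter on low values and were tested. The plants were F1 hybrids of Arabidopsis thaliana, Col-0 crossed with Ler, aged 35 days, and each leaf was cut off and drew solution through its petiole. The LiCl leaves received 100 mM LiCl and the control leaves the infiltration buffer, which holds potassium chloride, citrate and sucrose and was common to every group. Excision and sucrose were therefore shared by both groups. The labels give no feeding time, and do not say whether the 3 libraries of a group came from separate plants, so p-values measure the spread between libraries. No group was fed another salt, so effects of lithium, of chloride and of 100 mM solute cannot be told apart. For a second look at the same step, 3 libraries each of leaves fed PAP + LiCl and PAP alone, and of leaves fed PAP + ATP + LiCl and PAP + ATP, were used. PAP was at 100 µM and ATP at 1 mM by the sample labels, although the treatment notes give another PAP dose.

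Lithium competes with magnesium at a small set of enzymes. Among them are inositol monophosphatases, the phosphatase SAL1, and protein kinases of the GSK3 type, which in plants act in brassinosteroid signalling. SAL1 breaks down PAP, the by-product of sulfate transfer from the donor PAPS, and PAP in turn inhibits the XRN exoribonucleases that degrade RNA from its 5′ end. Loss of SAL1 or of the nuclear XRN enzymes is known to let RNA polymerase II run on past the ends of genes. Lithium salts are also toxic much as sodium salts are, and are handled by the transporters that keep sodium and potassium in balance.

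The 6 libraries held between 20997704 and 26590221 reads assigned to genes. The leading principal component took 54.5% of their variance, and on it the LiCl libraries lay at 33.6, 64.1 and 62.1 and the control libraries at -91.4, -49.1 and -19.3. On this component the LiCl libraries lay closer together than the control libraries. On the next, with 18.4% of the variance, LiCl library 10 lay apart at -57.5, with LiCl libraries 11 and 12 at 14.0 and 15.3. Control libraries 1, 2 and 3 lay there at 0.98, -23.3 and 50.5. The median standard deviation of a gene on the log2 scale was 0.26 within LiCl and 0.40 within control. Levels are given as CPM, the reads of a gene scaled to a common total of reads assigned to genes, for libraries 10, 11 and 12 of LiCl and 1, 2 and 3 of control in that order. Changes are log2 ratios of CPM + 0.5, LiCl over control, ± standard error from limma with 3 libraries a group, and a gene is said to rise or fall when its Benjamini-Hochberg adjusted p is under 0.05.

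With LiCl 1279 genes rose (7.27% of those tested) and 1823 fell (10.4%), together 17.6%. The rises exceeded 2-fold in 865 genes and 8-fold in 25, and the falls exceeded 2-fold in 1271 and 8-fold in 74. Genes that rose took up 12.8%, 11.9% and 11.6% of the reads with LiCl, against 3.66%, 5.93% and 5.57% in control, and genes that fell took up 4.28%, 3.72% and 3.53%, against 12.1%, 11.7% and 8.52%. The 3 LiCl libraries lay all above or all below the 3 control libraries in 2949 of the 3102 genes called, which is 95.1%, and in 33.2% of all genes tested. In 15 other settings of the processing and the fit, which include leaving out each library, 684 genes were called in the same direction every time, 240 of them rises and 444 falls. Leaving out control library 1 gave 1754 calls, LiCl library 11 gave 1785 and LiCl library 12 gave 1756, and the count was 1162 when only the 6 libraries entered the fit. Counts of genes in a list below are to be read against the 7.27% and 10.4% of all genes, and list medians against the median of all genes, -0.027. Counts given below for the other LiCl steps are to be read against the shares of all genes there. These were 9.67% rises and 12% falls with PAP, and 4.6% and 4.84% with PAP + ATP. Calls said below to hold throughout are those made in all 15 settings.

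**Figure D1:**
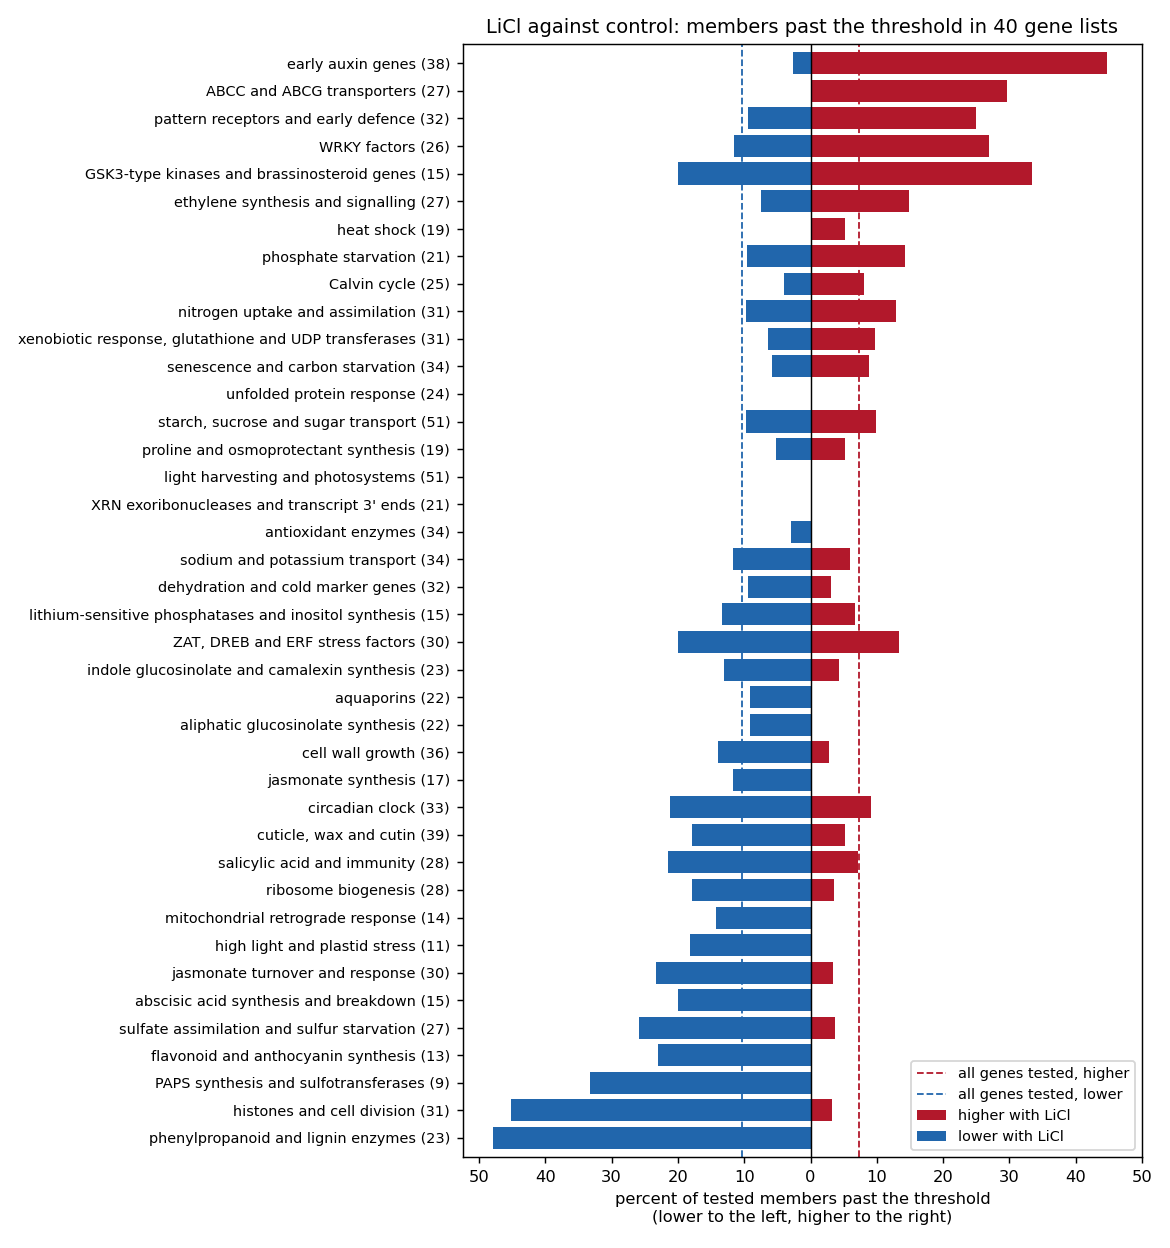
Share of the tested members of 40 gene lists that rose (red, right) or fell (blue, left) with LiCl against control, in percent, with the number of tested members in brackets and the shares among all genes tested as dashed lines. Early auxin genes lie at the top with 17 of 38 members higher, and phenylpropanoid and lignin enzymes at the bottom with 11 of 23 lower.

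Among the 15 tested genes for lithium-sensitive phosphatases and inositol phosphate synthesis, 1 rose and 2 fell, with a median of -0.31. SAL1 itself was at 120.4, 112 and 121 CPM with LiCl, against 213, 95 and 154 CPM in control, and the groups overlapped (log2 -0.31 ± 0.29, adjusted p = 0.488). AHL, which encodes a phosphatase of the SAL1 family that also splits PAP, was at 81, 71.1 and 63.9 CPM with LiCl, against 234, 267 and 121 CPM in control. All 3 LiCl libraries lay below all control libraries, and the gene fell (log2 -1.45 ± 0.34, adjusted p = 0.0071). ITPK1, an inositol phosphate kinase gene of the pathway to phytate, was at 35, 25.8 and 25.6 CPM with LiCl, against 103, 90.9 and 71.4 CPM in control and fell as well (log2 -1.6 ± 0.25, adjusted p = 4.3e-04). The calls of AHL and ITPK1 held throughout. IMPL2, an inositol monophosphatase-like gene whose enzyme acts in histidine synthesis, rose (log2 0.72 ± 0.24) in 6 of the 15 settings and was not called when any 1 of the 6 libraries was left out.

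Of the 21 tested genes for XRN enzymes and transcript 3′ ends limma called 0, while 4 were higher and 1 lower at an unadjusted p under 0.05 and the median change was 0.47. On the same genes edgeR called 2 higher and 0 lower, and DESeq2 4 higher and 1 lower. XRN3, one of the nuclear XRN genes, was at 49.5, 53.7 and 45.4 CPM with LiCl, against 15.6, 28.2 and 38.6 CPM in control, without overlap (log2 0.93 ± 0.34, adjusted p = 0.0676). The values of XRN2, also nuclear, were 26.1, 23.7 and 21.6 CPM with LiCl, against 9.48, 18 and 20.1 CPM in control (log2 0.63 ± 0.38, adjusted p = 0.257). For the cytosolic XRN4 they were 36.6, 37.3 and 30.4 CPM with LiCl, against 13.3, 27 and 39.7 CPM in control (log2 0.50 ± 0.32, adjusted p = 0.288). Of 4 reporters used in studies of this pathway, ZAT10 (log2 -0.58 ± 0.53, adjusted p = 0.473) and DREB2A (log2 0.17 ± 0.48, adjusted p = 0.839) did not pass, and APX2 and ELIP2 were too low to be tested. APX2 was listed at 0.717, 0.157 and 0.376 CPM with LiCl and had no value in control.

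Sulfur genes that changed mostly fell. Of 27 tested genes for sulfate assimilation and sulfur starvation, 1 rose and 7 fell, with a median of -0.16. GGCT2;1, whose enzyme splits glutathione when sulfur is short, was at 2.02, 1.5 and 1.65 CPM with LiCl, against 42.1, 25.2 and 18.5 CPM in control. The groups lay far apart, a 12.4-fold fall (log2 -3.63 ± 0.44, adjusted p = 5.9e-05). SHM7, a serine hydroxymethyltransferase gene known to respond to sulfur supply, was at 20.6, 16 and 16.1 CPM with LiCl, against 80.3, 49.6 and 68.3 CPM in control (log2 -1.86 ± 0.46, adjusted p = 0.00995). APR3, an adenylylsulfate reductase gene, was at 17.7, 10.4 and 17.1 CPM with LiCl, against 102, 80.7 and 66.6 CPM in control. Both fell throughout. The transcription factor gene SLIM1, a regulator of the sulfur starvation response, was at 8.31, 8.73 and 7.41 CPM with LiCl, against 9.62, 18.4 and 16.7 CPM in control (log2 -0.79 ± 0.24, adjusted p = 0.0315). SERAT2;1, for a serine acetyltransferase of cysteine synthesis, fell too (log2 -1.03 ± 0.27). APS3, an ATP sulfurylase gene at the start of the same pathway, was the member that rose, at 89.2, 121 and 121 CPM with LiCl, against 31.4, 26.7 and 53.8 CPM in control (log2 1.6 ± 0.32, adjusted p = 0.00297).

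The LSU genes are markers of sulfur starvation, and 3 of them were lower or without a value with LiCl. LSU2 was at 4.85, 1.73 and 1.84 CPM with LiCl, against 43.2, 17.6 and 10.9 CPM in control. LSU3 was at 21.2, 7.68 and 8.54 CPM and LSU1 at 18.05, 4.75 and 2.63 CPM in control, and neither had a value in the LiCl columns, so no fold can be given. Empty entries of the table always cover a whole group of 3 libraries. With 1 library left out between 4 and 7 sulfur genes fell, the fewest without LiCl library 11 or 12. Of 9 tested genes that make or use PAPS, 0 rose and 3 fell. SOT16, for a sulfotransferase of indole glucosinolate synthesis, fell throughout, at 277, 264 and 251 CPM with LiCl, against 676, 812 and 498 CPM in control. The others were SOT12 (log2 -1.83 ± 0.55) and the APS kinase gene APK3 (log2 -0.74 ± 0.22). Leaving out LiCl library 11, LiCl library 12 or control library 1 left 1 of these 3. In the 2 other LiCl steps, described below, 4 and 0 sulfur starvation genes rose and 7 and 7 fell.

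Early auxin genes held the largest share of rises of any list. Aux/IAA genes encode short-lived repressors, GH3 genes enzymes that join auxin to amino acids, and SAUR genes small growth-related proteins; all are known as rapid targets of auxin. Of 38 members tested 17 rose and 1 fell, with a median of 1.1. IAA1 was at 40.9, 80.7 and 87.2 CPM with LiCl, against 2.48, 5.12 and 7.62 CPM in control. Every LiCl library lay well above the highest control library, and the gene rose 12.9-fold (log2 3.69 ± 0.51, adjusted p = 1.5e-04). GH3.3 was at 46.6, 55.6 and 53.4 CPM with LiCl, against 2.24, 5.93 and 8.59 CPM in control (log2 3.27 ± 0.59, adjusted p = 0.00141). IAA13 was at 17.6, 20.5 and 18 CPM with LiCl, against 5.14, 6.17 and 7.25 CPM in control (log2 1.53 ± 0.30, adjusted p = 0.00213). These 3 rose throughout. ARF19, for a factor that activates auxin targets, was at 18.6, 30.5 and 27.5 CPM with LiCl, against 1.14, 4.91 and 9.84 CPM in control, with control library 3 closest to the LiCl libraries (log2 2.5 ± 0.55, adjusted p = 0.00542). IAA30 (log2 2.69 ± 0.44), IAA5 (log2 1.67 ± 0.38), SAUR19 (log2 1.59 ± 0.35) and SAUR24 (log2 2.13 ± 0.51) rose as well. Counts of SAUR19 and SAUR24 are uncertain, because the SAUR19 to SAUR24 genes are near-identical copies. IAA16 was the member that fell, at 123, 89.9 and 92 CPM with LiCl, against 179.6, 174 and 176 CPM in control (log2 -0.81 ± 0.16, adjusted p = 0.00264).

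The number of auxin genes that rose lay between 8 and 20 with 1 library left out, lowest without LiCl library 11 or 12, and was 6 when only the 6 libraries were fitted. Counts in the other libraries, rises first, were 14 and 1 in PAP-fed leaves and 14 and 1 in PAP + ATP-fed leaves. ABCB19, an auxin transporter gene, also rose, at 63.7, 100.4 and 79.9 CPM with LiCl, against 13, 22 and 42.3 CPM in control (log2 1.78 ± 0.43). MAKR6, for a membrane-associated kinase regulator, rose as well, at 113, 231 and 212 CPM with LiCl, against 6.1, 11.2 and 23 CPM in control (log2 3.86 ± 0.47, adjusted p = 6.2e-05). Not every SAUR gene followed: AT4G22620, of the SAUR-like family, was at 0.295, 0.275 and 0.301 CPM with LiCl, against 14.5, 22.1 and 21.2 CPM in control, one of the clearest falls of the comparison (log2 -4.62 ± 0.33, adjusted p = 4.3e-07). Of 37 tested genes that the reference names as SAUR-like, 10 rose and 5 fell (27.0% and 13.5%), with 2 rises without LiCl library 12, 0 when only the 6 libraries were fitted, and 3 falls without control library 1.

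GSK3-type kinase genes and brassinosteroid genes changed in both directions: of 15 tested, 5 rose and 3 fell, with a median of 0.42. Among kinase genes of the GSK3 type, 3 rose. SK32 was at 100.4, 89.2 and 76.6 CPM with LiCl, against 36, 64 and 40.5 CPM in control (log2 0.95 ± 0.19, adjusted p = 0.00281). BIL2 (log2 0.86 ± 0.24) and BIL1 (log2 0.56 ± 0.17) also kept their libraries apart from control. Neither was called without LiCl library 11, LiCl library 12, control library 1 or control library 2, and BIL1 was also lost without LiCl library 10. BIN2, the kinase best known as a brake on brassinosteroid signalling, was at 138, 206 and 182 CPM with LiCl, against 74, 159.6 and 93.1 CPM in control, with overlap between the groups, and did not pass (log2 0.74 ± 0.25, adjusted p = 0.0514). The receptor gene BRI1 was at 7.47, 5.63 and 4.7 CPM with LiCl, against 15.3, 47.7 and 30.8 CPM in control and fell throughout (log2 -2.19 ± 0.51, adjusted p = 0.00708), while BSK1, for a kinase that acts after the receptor, rose (log2 1.03 ± 0.24). For the hormone itself, the synthesis gene BR6OX2 fell, at 0.127, 0.236 and 0.188 CPM with LiCl, against 5.76, 2.15 and 1.94 CPM in control (log2 -2.33 ± 0.43). DWF4, for an earlier step, fell too (log2 -1.13 ± 0.29). BAS1, whose enzyme inactivates brassinosteroids, was at 2.83, 8.89 and 8.73 CPM with LiCl, against 0.143, 0.366 and 1.34 CPM in control (log2 2.71 ± 0.49, adjusted p = 0.00139). Between 3 and 6 members rose and between 2 and 3 fell with 1 library left out. Without LiCl library 11, LiCl library 12 or control library 1, 3 rose. When only the 6 libraries were fitted, 2 rose and 2 fell. BRH1, a RING protein gene named for its response to brassinosteroid and no member of the list, fell to 0.38, 1.26 and 0.827 CPM with LiCl, against 20.05, 31.4 and 21.2 CPM in control (log2 -4.25 ± 0.37, adjusted p = 4.3e-06).

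Phenylpropanoid enzymes turn phenylalanine into the building blocks of lignin and flavonoids, and 11 of their genes fell with LiCl. Of 23 tested phenylpropanoid and lignin genes 0 rose and 11 fell, and the median of -1.56 was the lowest of all 40 lists. C4H, the cinnamate hydroxylase gene at the second step, was at 70.5, 66.2 and 60.5 CPM with LiCl, against 488, 1316 and 271 CPM in control. The LiCl libraries hardly differed from each other, while control library 2 stood well above control libraries 1 and 3; the fall (log2 -3.08 ± 0.46, adjusted p = 3.2e-04) held throughout. Control library 2 was the highest control library in 4CL2 too, which encodes a coumarate CoA ligase (7.3, 4.88 and 4.29 CPM with LiCl, against 24.7, 73.6 and 10.7 CPM in control; log2 -2.24 ± 0.50). It was also the highest for CSE, for caffeoyl shikimate esterase (log2 -2.56 ± 0.55). HCT (log2 -1.68 ± 0.38), CYP98A3 (log2 -1.67 ± 0.47), COMT1 (log2 -1.76 ± 0.34) and CCoAOMT1 (log2 -1.44 ± 0.31), for later steps, fell as well. So did CAD5 (log2 -2.39 ± 0.68), for the last step to the lignin alcohols, and PAL1 (log2 -1.87 ± 0.57) and PAL4 (log2 -1.24 ± 0.35), for the entry enzyme. The count of falls lay between 6 and 12, lowest without LiCl library 12, and was 2 when only the 6 libraries were fitted. In PAP-fed leaves LiCl was followed by 1 rise and 4 falls in this list, and in PAP + ATP-fed leaves by 0 and 1; C4H changed by log2 -1.81 ± 0.46, adjusted p = 0.00986, and by log2 -1.35 ± 0.46, adjusted p = 0.0767.

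Of 13 tested flavonoid and anthocyanin genes 0 rose and 3 fell, and 9 of the 22 in the table were too low to be tested. TT5, the chalcone isomerase gene, was at 2.91, 1.42 and 0.903 CPM with LiCl, against 13.1, 7.43 and 5.5 CPM in control and fell throughout. MYB75, for an activator of anthocyanin synthesis, was at 7.72, 3.78 and 2.33 CPM with LiCl, against 131, 13.8 and 38 CPM in control, with a wide range among the control libraries, and fell in 11 of the 15 settings. UGT84A2, for a sinapate glucosyltransferase, fell (log2 -1.78 ± 0.50), and so did DHS1, for the first enzyme of the shikimate pathway that supplies phenylalanine (415, 488 and 333 CPM with LiCl, against 1491, 2210.3 and 738 CPM in control; log2 -1.72 ± 0.49). Leaving out LiCl library 11, LiCl library 12 or control library 1 left TT5 as the lone call of the 3. Of 22 aliphatic glucosinolate genes 0 rose and 2 fell, the factor gene MYB76 (log2 -1.3 ± 0.35) and AOP1 (log2 -1.16 ± 0.26). Of 23 indole glucosinolate and camalexin genes 1 rose and 3 fell. With 1 library left out between 1 and 6 fell, the fewest without control library 1, and 0 when only the 6 libraries were fitted; the rise, of CYP71B6, was lost each time. MYB76 was not called without LiCl library 11 or 12. The regulator gene MYB34 was at 169.7, 193 and 199.9 CPM with LiCl, against 592, 389 and 323 CPM in control (log2 -1.17 ± 0.29). CYP81F1 fell too (log2 -1.49 ± 0.35).

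**Figure D2:**
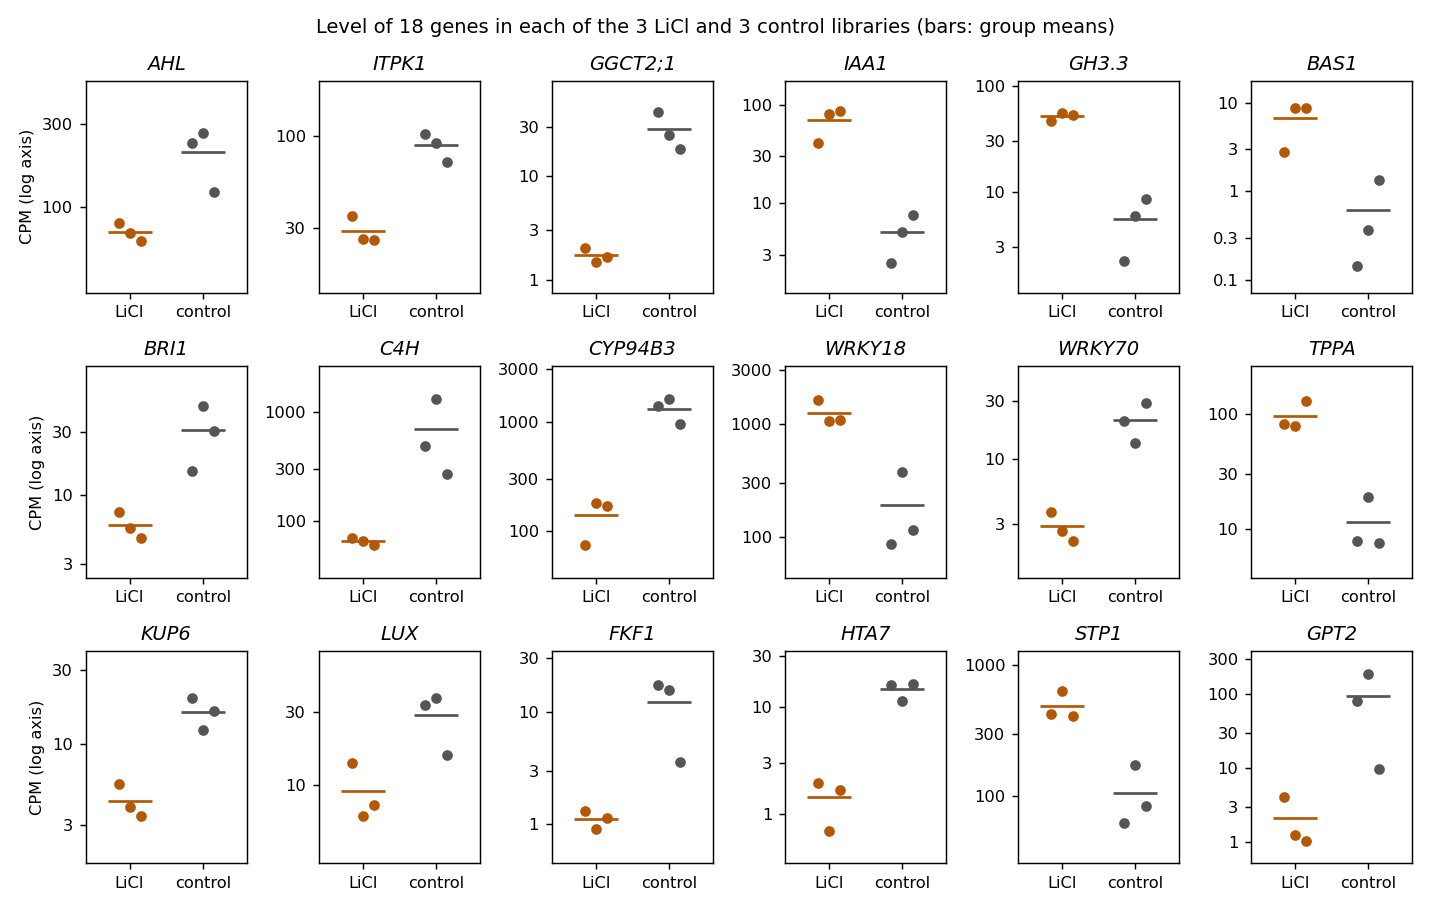
Level in CPM, on log axes, of 18 genes in the 3 LiCl libraries (orange) and the 3 control libraries (grey), with bars at group means. The 18 genes were picked as examples with their values known, so that LiCl and control do not overlap in any panel is no separate result. Without such overlap were 95.1% of the genes called and 33.2% of all genes tested. C4H shows the tight LiCl group at 60.5 to 70.5 CPM beside control at 271 to 1316 CPM.

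Jasmonate, which excised leaves make on wounding, showed falls in its response and turnover genes. Of 30 such genes 1 rose and 7 fell, and of 17 synthesis genes 0 rose and 2 fell, with medians of -0.53 and -0.16. ST2A, for a sulfotransferase that uses PAPS to sulfate hydroxylated jasmonate, was at 7.85, 24.2 and 16.7 CPM with LiCl, against 138, 191 and 327 CPM in control (log2 -3.76 ± 0.72, adjusted p = 0.00203). DAD1, a lipase gene at the entry of jasmonate synthesis, was at 1.1, 1.5 and 0.978 CPM with LiCl, against 18.3, 22.2 and 13.6 CPM in control (log2 -3.44 ± 0.34, adjusted p = 9.8e-06). The allene oxide cyclase gene AOC2 had the highest control level of all genes that fell, at 3086, 2033 and 2122 CPM with LiCl, against 8139, 5914 and 4321 CPM in control. The storage protein gene VSP2 was at 44.4, 171 and 136 CPM with LiCl, against 459.9, 1490.5 and 301 CPM in control (log2 -2.54 ± 0.83, adjusted p = 0.0432); its counts may share reads with VSP1, a close copy. CORI3, another abundant jasmonate-induced gene, fell (967, 718 and 589 CPM with LiCl, against 2258, 1895 and 1447 CPM in control; log2 -1.31 ± 0.40). JAZ3 (log2 -1.26 ± 0.30) and the factor gene ORA59 (log2 -1.51 ± 0.42) fell too. The repressor gene JAZ5 was at 976, 827 and 822 CPM with LiCl, against 393, 525 and 291 CPM in control and rose. The count of falls among response genes lay between 3 and 6 with 1 library left out, lowest without LiCl library 11 or control library 1. Of 27 ethylene genes 4 rose and 2 fell. ACS6, for an ACC synthase, was at 126, 111 and 131 CPM with LiCl, against 73.4, 82.5 and 36.4 CPM in control. ACS10, for a related aminotransferase, rose too (log2 1.23 ± 0.33), and the factor gene ERF104 fell (log2 -1.99 ± 0.59). None of the 4 ethylene rises was called without LiCl library 11 or without LiCl library 12. Ethylene falls numbered 0 without LiCl library 11, LiCl library 12, control library 1 or control library 2. TPS03, for a terpene synthase of the wound volatile ocimene, was at 17.3, 8.66 and 9.36 CPM with LiCl, against 363, 159.6 and 283 CPM in control (log2 -4.44 ± 0.73, adjusted p = 6.6e-04).

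Defence genes changed in both directions. Of 32 genes for pattern receptors and early defence signalling 8 rose and 3 fell, with a median of 0.43. The rises included receptor genes: SOBIR1, a co-receptor gene, was at 477, 250.2 and 286 CPM with LiCl, against 46.9, 190.2 and 87.2 CPM in control (log2 1.81 ± 0.43, adjusted p = 0.00863). PEPR1, for a receptor of damage peptides, was at 355, 345 and 322 CPM with LiCl, against 53, 251 and 147 CPM in control (log2 1.44 ± 0.38). LYK5, for a chitin receptor, rose too (log2 1.56 ± 0.44). BIK1, for the kinase below these receptors (log2 1.58 ± 0.43), and the kinase gene MKK1 (log2 0.98 ± 0.23) rose. The kinase gene MKK4 fell, at 15.3, 6.3 and 5.27 CPM with LiCl, against 49, 88.3 and 18.5 CPM in control (log2 -2.36 ± 0.55, adjusted p = 0.00751). EFR, for the receptor of bacterial elongation factor Tu, was at 12.9, 13.7 and 7.26 CPM with LiCl, against 13.6, 61.8 and 27.2 CPM in control, with overlapping libraries, and its fall (log2 -1.35 ± 0.46, adjusted p = 0.0495) was called in 6 of the 15 settings. Outside the list, the cysteine-rich receptor kinase gene CRK10 was at 311, 221 and 217 CPM with LiCl, against 5.57, 44.8 and 16.1 CPM in control, a 14.9-fold rise that held throughout. Between 3 and 11 list members rose with 1 library left out, lowest without control library 1, and 0 when only the 6 libraries were fitted. Falls in the list numbered 1 without LiCl library 11, LiCl library 12 or control library 2.

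Of 26 WRKY transcription factor genes 7 rose and 3 fell. WRKY18 was at 1627, 1056 and 1079.9 CPM with LiCl, against 87.6, 379 and 116 CPM in control (log2 2.96 ± 0.46, adjusted p = 4.1e-04). WRKY15 was at 307, 247 and 257 CPM with LiCl, against 29.6, 67 and 31.7 CPM in control (log2 2.74 ± 0.36, adjusted p = 1.1e-04). WRKY6 was at 234, 80.03 and 88.3 CPM with LiCl, against 16, 20.1 and 9.65 CPM in control (log2 2.97 ± 0.49, adjusted p = 6.3e-04). WRKY47 (log2 2.62 ± 0.49) and WRKY33 (log2 1.77 ± 0.45) rose too. Going the other way, WRKY70, for a factor of the salicylic acid response, was at 3.75, 2.64 and 2.18 CPM with LiCl, against 20.4, 13.7 and 28.7 CPM in control. WRKY46 was at 5.27, 2.6 and 2.67 CPM with LiCl, against 15.1, 29.3 and 10.4 CPM in control (log2 -2.16 ± 0.43, adjusted p = 0.00247). WRKY23 also fell (log2 -1.45 ± 0.30). These 5 rises and 3 falls held throughout. WRKY factors bind W-boxes, the letters TTGACC or TTGACT on either strand, and their own promoters are known to carry such sites. Within 250 bases before and 50 after the annotated start, 38.7% of the promoters of genes that rose, 28.2% of those that fell and 32.7% of all 17464 promoters of tested genes held one. The stretches before the starts of WRKY33 (chr2:16108115-16108234, plus strand, 120 bases) and WRKY15 (chr2:9924746-9924885, plus strand, 140 bases), from RefSeq's TAIR10.1, are shown because both genes rose throughout and carry 2 W-boxes each, in capitals, written 5′ to 3′ towards the gene.
WRKY33: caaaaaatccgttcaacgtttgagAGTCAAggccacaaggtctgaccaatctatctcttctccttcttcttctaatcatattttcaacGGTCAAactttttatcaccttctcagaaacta
WRKY15: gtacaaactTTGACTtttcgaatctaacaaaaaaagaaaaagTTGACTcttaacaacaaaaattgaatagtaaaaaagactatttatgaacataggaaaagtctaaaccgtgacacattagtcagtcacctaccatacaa
In WRKY33 both matches lie on the opposite strand, and in WRKY15 both lie on the strand of the gene. A match is a description of the letters and says nothing of binding in these leaves.

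Among 28 genes of salicylic acid and immunity 2 rose and 6 fell, with a median of -0.71. DMR6, whose enzyme hydroxylates salicylic acid, was at 26.1, 39 and 23.5 CPM with LiCl, against 74.1, 214 and 149.7 CPM in control (log2 -2.19 ± 0.47, adjusted p = 0.00454). EDS1, a hub of immunity by intracellular receptors, was at 77.2, 53.7 and 61.8 CPM with LiCl, against 9.86, 41.9 and 42.5 CPM in control (log2 1.26 ± 0.39, adjusted p = 0.0317). The falls in NUDT7, SAG101, BAP1 and BAP2 lay between -2.06 and -1.09. Falls in this list numbered between 2 and 7 with 1 library left out, lowest without control library 2. Rises numbered between 1 and 4, lowest without LiCl library 10, 11 or 12 or control library 1, and 1 of the 2 rises held throughout. In the other libraries this list had no fall: rises and falls numbered 9 and 0 in PAP-fed leaves and 3 and 0 in PAP + ATP-fed leaves. Among 27 transporter genes of the ABCC and ABCG families and ABCB relatives 8 rose and 0 fell, with a median of 0.50. ABCG36, a plasma membrane exporter gene of pathogen defence, was among the most abundant genes that rose, at 7674, 6657 and 4567 CPM with LiCl, against 589, 3156 and 1262 CPM in control (log2 2.21 ± 0.42, adjusted p = 0.00196). ABCC7 was at 87.5, 65.3 and 70.3 CPM with LiCl, against 10.4, 16.1 and 20.5 CPM in control. It rose throughout, as did ABCC2, for a vacuolar carrier of conjugates (log2 1.25 ± 0.24), and ABCC13 (log2 1.77 ± 0.32). ABCC1 (log2 1.33 ± 0.35) and ABCC4 (log2 1.02 ± 0.34) rose in 12 and 7 of the 15 settings. Without control library 1 the rises of this list numbered 5, and 4 when only the 6 libraries were fitted. Counts in the other libraries, rises first, were 9 and 3 of 27 in PAP-fed leaves and 1 and 2 of 27 in PAP + ATP-fed leaves. Over all genes fewer were called in the latter as well, 9.44% against 21.6%.

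Of the genes that handle sodium and potassium, 2 of 34 tested rose and 4 fell, with a median of 0.0051. KUP6, a potassium transporter gene, was at 5.53, 3.93 and 3.42 CPM with LiCl, against 19.7, 12.3 and 16.3 CPM in control. KUP8, of the same family, was at 9.96, 9.84 and 7.75 CPM with LiCl, against 26.7, 28.7 and 21.3 CPM in control, and both fell throughout. The antiporter gene NHX6, of endosomes, fell (18.7, 14 and 12.3 CPM with LiCl, against 27.2, 29.6 and 23 CPM in control), as did the vacuolar NHX1 (log2 -1.62 ± 0.52), in 8 of the 15 settings and with overlapping libraries. The channel gene CNGC3 (212, 102 and 62.8 CPM with LiCl, against 19.7, 53.2 and 29.5 CPM in control; log2 1.8 ± 0.48) and NHX4 (log2 1.36 ± 0.41) rose; neither was called without control library 1, and the falls numbered 2 without LiCl library 12. Of 15 abscisic acid synthesis and breakdown genes 0 rose and 3 fell. They serve opposite ends of the pathway. CYP707A4, for a hydroxylase that breaks the hormone down, was at 0.717, 0.393 and 0.0752 CPM with LiCl, against 6.48, 5.2 and 2.22 CPM in control. The synthesis gene ABA2 was at 2.02, 2.28 and 2.26 CPM with LiCl, against 4.05, 6.34 and 8.82 CPM in control, and NCED9, also of synthesis, was low in both groups (log2 -1.21 ± 0.30).

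Of 32 dehydration and cold marker genes 1 rose and 3 fell, and of 22 aquaporin genes 0 rose and 2 fell. ERD7, the member that rose, was abundant at 2968, 2675 and 3112 CPM with LiCl, against 1127, 1663 and 1730.3 CPM in control (log2 0.98 ± 0.25). NAC019 (log2 -2.01 ± 0.55), COR15B (log2 -1.81 ± 0.54, with overlapping libraries) and LEA14 (log2 -1.17 ± 0.37), known for induction by drought, fell; none of these 3 was called without LiCl library 11, LiCl library 12 or control library 1. The tonoplast aquaporin gene GAMMA-TIP was at 449, 485 and 715 CPM with LiCl, against 2550.5, 853 and 864 CPM in control, with control library 1 far above the others. The boric acid channel gene NIP6;1 fell too (log2 -1.25 ± 0.35); neither was called without LiCl library 11 or 12. Of 19 proline and osmoprotectant genes 1 rose and 1 fell, both throughout. TPPA, a trehalose 6-phosphate phosphatase gene, was at 81.8, 78.4 and 131 CPM with LiCl, against 7.86, 19 and 7.53 CPM in control (log2 3.12 ± 0.37, adjusted p = 4.0e-05). SIP2, for an enzyme that breaks down raffinose, was at 91.7, 96.3 and 68.9 CPM with LiCl, against 321, 197 and 270.3 CPM in control (log2 -1.6 ± 0.36, adjusted p = 0.00552). Of 30 ZAT, DREB and ERF factor genes 4 rose and 6 fell. RAP2.6 was at 52.3, 34.6 and 24.7 CPM with LiCl, against 569, 564 and 422 CPM in control, and it fell throughout. DREB1A fell throughout too, at 10.4, 4.76 and 2.67 CPM with LiCl, against 61.4, 31.3 and 22.9 CPM in control. ERF53 was at 343, 124 and 205 CPM with LiCl, against 38.2, 63 and 30.4 CPM in control and rose throughout. Falls numbered between 2 and 10 with 1 library left out, lowest without LiCl library 11, LiCl library 12 or control library 1, and rises between 1 and 4, lowest without LiCl library 10.

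The clock of Arabidopsis is a loop in which morning factors such as CCA1 repress evening genes through the evening element, AAAATATCT, and evening factors such as LUX in turn repress morning genes. Of 33 tested members 3 rose, all of the CCA1 family, and 7 fell, among them evening genes. CCA1 was at 43.9, 26.8 and 33.6 CPM with LiCl, against 9.38, 10.1 and 17 CPM in control. Its relative RVE4 was at 58.8, 42.8 and 48.5 CPM with LiCl, against 25.1, 17.4 and 27.3 CPM in control, and both rose throughout. CCA1 begins 449 bp after PSI-P, a stronger gene on the same strand, and is one of the tandem neighbours below. PSI-P was not called (log2 0.17, adjusted p = 0.712), and where the CCA1 reads began was not tested. FKF1, an evening photoreceptor gene, was at 1.31, 0.905 and 1.13 CPM with LiCl, against 17.2, 15.7 and 3.56 CPM in control (log2 -2.71 ± 0.67, adjusted p = 0.00991). LUX was at 14, 6.3 and 7.48 CPM with LiCl, against 33.5, 37.1 and 15.8 CPM in control (log2 -1.58 ± 0.35, adjusted p = 0.00578). GRP7, an evening RNA-binding protein gene under clock control, was at 198, 104 and 86.1 CPM with LiCl, against 393, 392 and 208 CPM in control (log2 -1.39 ± 0.44, adjusted p = 0.0368). Its close relative GRP8 was at 115, 71.4 and 59.9 CPM with LiCl, against 188, 256 and 113 CPM in control, where the groups overlapped by 1 library (log2 -1.15 ± 0.34, adjusted p = 0.0288). The falls numbered between 2 and 7 with 1 library left out, lowest without LiCl library 11 or control library 1, and 1 when only the 6 libraries were fitted. Counts in other libraries, rises first, were 1 and 6 in PAP-fed leaves and 0 and 3 in PAP + ATP-fed leaves. The labels give no time of harvest, so whether time of day differed between the groups was not tested.

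The evening element was found on either strand in 2.29% of the promoters of genes that rose, 3.95% of those that fell and 3.1% of all, in the same windows as above. Stretches before the starts of 4 clock genes that fell hold it. They are shown as examples of the element in evening genes, and are given from TAIR10.1 as GRP7 (chr2:9266558-9266657, minus strand), LUX (chr3:17182942-17183041, plus strand), GRP8 (chr4:18275217-18275316, minus strand) and FKF1 (chr1:25508439-25508638, plus strand), each 5′ to 3′ towards the gene with the element in capitals.
GRP7: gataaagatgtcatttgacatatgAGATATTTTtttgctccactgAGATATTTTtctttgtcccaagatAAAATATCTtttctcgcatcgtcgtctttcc
LUX: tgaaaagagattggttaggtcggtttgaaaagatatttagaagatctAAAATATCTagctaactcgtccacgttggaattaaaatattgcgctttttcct
GRP8: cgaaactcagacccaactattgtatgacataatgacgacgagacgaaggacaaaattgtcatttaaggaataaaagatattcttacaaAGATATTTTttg
FKF1: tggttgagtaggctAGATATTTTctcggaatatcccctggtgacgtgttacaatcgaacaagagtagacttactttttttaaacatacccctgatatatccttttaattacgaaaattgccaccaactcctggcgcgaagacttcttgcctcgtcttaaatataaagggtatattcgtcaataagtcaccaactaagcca
GRP7 holds 3 matches within 76 bases of its start, 2 of them on the opposite strand, and the others hold 1 each. These are matches of letters, and binding by CCA1 or its relatives was not measured. Among the remaining motifs searched on both strands, the G-box CACGTG was in 8.06% of promoters of genes that rose and 12.2% of those that fell (9.32% of all). The GCC-box GCCGCC was in 1.5% and 3.13% (2.75% of all), the abscisic acid element, ACGTGGC or ACGTGTC, in 9.25% and 9.93% (9.39%), and the dehydration element, GCCGAC or ACCGAC, in 9.72% and 11.7% (10.3%).

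Histone genes make the proteins that package newly copied DNA and are mostly active in dividing cells. Of 31 tested genes for histones and cell division 1 rose and 14 fell, with a median of -0.69, and 10 of the 14 falls held throughout. Falls in this list numbered between 12 and 14 with 1 library left out. HTA7, for an H2A histone, was at 1.98, 0.708 and 1.69 CPM with LiCl, against 16.1, 11.2 and 16.5 CPM in control (log2 -2.99 ± 0.29, adjusted p = 8.5e-06). HTB2, for an H2B histone, was at 4.39, 3.82 and 3.5 CPM with LiCl, against 26.4, 22.6 and 24.8 CPM in control (log2 -2.51 ± 0.32, adjusted p = 7.2e-05). HIS4, for an H4 histone, was at 5.61, 6.06 and 4.48 CPM with LiCl, against 20.6, 26.6 and 21.3 CPM in control (log2 -1.99 ± 0.27, adjusted p = 1.4e-04). HTB4, the most abundant of those named, was at 59.4, 49.8 and 44.8 CPM with LiCl, against 197, 172 and 149 CPM in control (log2 -1.74 ± 0.19, adjusted p = 2.1e-05). The libraries within each group differed little, and the groups stood apart in each of these genes. Histone genes are near-identical in sequence, so reads may be divided between copies. SMR1, for an inhibitor of cell cycle kinases, fell throughout (log2 -2.15 ± 0.42). CYCD3;1, for a cyclin that promotes division, rose (1.48, 5.19 and 5.68 CPM with LiCl, against 0.571, 1.34 and 1.43 CPM in control; log2 1.4 ± 0.43) but was not called without LiCl library 11, LiCl library 12 or control library 1. Counts in the other libraries, rises first, were 2 and 15 in PAP-fed leaves and 1 and 4 in PAP + ATP-fed leaves.

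Of 28 ribosome biogenesis genes 1 rose and 5 fell, with a median of -0.59. SWA1, for a nucleolar factor, was at 1.98, 1.77 and 1.47 CPM with LiCl, against 12.9, 6.34 and 5.17 CPM in control. SWA3, for an RNA helicase, fell too (log2 -1.25 ± 0.31). SWA2 went the other way, at 124, 71.4 and 91.4 CPM with LiCl, against 6.24, 23.1 and 14.5 CPM in control (log2 2.81 ± 0.50, adjusted p = 0.00128), and is taken up with the tandem pairs below. Falls numbered between 1 and 4 with 1 library left out, lowest without LiCl library 12. Of 36 cell wall growth genes 1 rose and 5 fell. EXL2, of the EXORDIUM family, was at 74.5, 31.8 and 34 CPM with LiCl, against 406, 281 and 375 CPM in control and fell throughout (log2 -3.0 ± 0.38, adjusted p = 7.2e-05). The expansin gene EXPA10 (log2 -2.84 ± 0.86) and EXO (log2 -2.75 ± 0.78) fell in 9 and 10 of the 15 settings. Without control library 1 EXL2 was the lone fall. Of 39 cuticle genes 2 rose and 7 fell. CER6, for the condensing enzyme that elongates wax precursors in epidermis, was at 193, 188 and 182 CPM with LiCl, against 660.4, 324 and 729 CPM in control (log2 -1.52 ± 0.34, adjusted p = 0.0055). CER3, also of wax synthesis, was at 42.1, 46.8 and 37.3 CPM with LiCl, against 128, 98.1 and 79.3 CPM in control. MYB30, for an activator of these genes, rose, at 17.5, 17.2 and 19.8 CPM with LiCl, against 5.95, 10.8 and 4.94 CPM in control (log2 1.34 ± 0.30). WSD1 (2.53, 3.03 and 1.96 CPM with LiCl, against 28.2, 3.13 and 21.7 CPM in control) was low in control library 2 as well, and its fall was called in 5 of the 15 settings. Cuticle falls numbered between 2 and 9, lowest without control library 1.

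Of 51 light harvesting and photosystem genes 0 rose and 0 fell by limma, edgeR or DESeq2, with 1 higher and 1 lower at an unadjusted p under 0.05 and a median of 0.082. Of 25 Calvin cycle genes 2 rose, RCA, for the activase of Rubisco (4951, 8420.2 and 8279.9 CPM with LiCl, against 1823, 3054 and 5219 CPM in control), and PRK, for phosphoribulokinase (log2 0.95 ± 0.31), and TKL2 fell (log2 -1.61 ± 0.44). RCA had the highest LiCl level of all genes that rose, overlapped between groups and was called in 8 of the 15 settings. Neither RCA nor PRK was called without LiCl library 11, LiCl library 12, control library 1 or control library 2. TKL2 was not called without LiCl library 12 or control library 2, nor when only the 6 libraries were fitted. Abundant genes of photorespiration, GGT1 (1961, 2273 and 2274 CPM with LiCl, against 952, 1283 and 1585 CPM in control; log2 0.80 ± 0.20) and AGT (log2 0.64 ± 0.20), both aminotransferases of peroxisomes, rose, as did the catalase gene CAT3 (log2 1.26 ± 0.33).

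Of 51 starch, sucrose and sugar transport genes 5 rose and 5 fell, and 3 and 3 without LiCl library 11 or control library 1. GPT2, which encodes the glucose 6-phosphate carrier of plastids, was at 4.09, 1.26 and 1.05 CPM with LiCl, against 81, 191 and 9.88 CPM in control. The control libraries spread widely, but the LiCl libraries all lay lower (log2 -4.55 ± 0.86, adjusted p = 0.0018). GBSS1, for the starch synthase that makes amylose, was at 100.2, 82 and 100.3 CPM with LiCl, against 480.1, 309 and 195 CPM in control and fell (log2 -1.7 ± 0.47), and the debranching enzyme gene ISA1 rose throughout (log2 0.94 ± 0.16). STP1, a hexose uptake carrier gene, was at 427, 638 and 407 CPM with LiCl, against 61.9, 172 and 83.9 CPM in control (log2 2.31 ± 0.45, adjusted p = 0.00222). SUC2, for the sucrose carrier that loads phloem, rose to 179.7, 214 and 209.8 CPM with LiCl, against 47.4, 89.4 and 118 CPM in control. BAM5, a cytosolic amylase gene, had LiCl library 10 far below LiCl libraries 11 and 12, at 1.81, 82.9 and 81.2 CPM with LiCl, against 156, 649 and 479 CPM in control (log2 -3.86 ± 1.19). Of 34 senescence and carbon starvation genes 3 rose and 2 fell, with 1 rise without LiCl library 11, LiCl library 12 or control library 1 and 0 falls without LiCl library 12, control library 1 or control library 2; MCCA, for leucine breakdown, rose throughout (172, 118 and 124 CPM with LiCl, against 21.5, 26.3 and 31.2 CPM in control). Of 31 nitrogen genes 4 rose and 3 fell. GDH1, for glutamate dehydrogenase, rose (79.6, 54 and 48.2 CPM with LiCl, against 17.1, 27.7 and 39.9 CPM in control; log2 1.14 ± 0.28). The ammonium transporter gene AMT2 (log2 -1.77 ± 0.41), the nitrate transporter gene NRT1.1 (log2 -1.94 ± 0.54) and the nitrate reductase gene NIA1 (log2 -1.8 ± 0.55) fell. None of the 4 rises was called without control library 1, and falls numbered 1 without LiCl library 10 or control library 2. A further nitrate transporter gene, NRT1.8, was listed at 13.0, 20.4 and 1.02 CPM in control and had no value with LiCl.

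Of 21 phosphate starvation genes 3 rose and 2 fell, and the rises numbered 1 when LiCl library 10, 11 or 12 or control library 1 or 2 was left out. The ribonuclease gene RNS1 was at 5.74, 7.16 and 7.78 CPM with LiCl, against 204, 51.2 and 79.4 CPM in control (log2 -3.69 ± 0.68, adjusted p = 0.00154). PHO1;H1, for a relative of the phosphate exporter PHO1, rose (log2 1.72 ± 0.42). Of 31 genes for responses to foreign compounds 3 rose (1 without LiCl library 10) and 2 fell, and the glutathione transferase gene GSTU3 was at 0.633, 0.0393 and 0.113 CPM with LiCl, against 15, 6.29 and 10.2 CPM in control (log2 -3.85 ± 0.56, adjusted p = 2.6e-04). Other stress lists held few calls: 0 rose and 1 fell of 34 antioxidant genes, 0 and 2 of 11 high light and plastid stress genes. Those counts were 1 and 0 of 19 heat shock genes, 0 and 2 of 14 mitochondrial retrograde genes, and 0 and 0 of 24 genes of the unfolded protein response. The calls given for the antioxidant, high light, heat shock and retrograde genes numbered 0 in each list without control library 1. In the unfolded protein response 2 were higher and 1 lower at an unadjusted p under 0.05 and edgeR and DESeq2 also called 0.

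Several large changes lay outside these lists. AT4G10290, a gene of the cupin superfamily, was at 2.11, 1.26 and 0.865 CPM with LiCl, against 288, 358 and 126 CPM in control, a 128-fold fall. Its LiCl libraries lay together and far from every control library (log2 -7.0 ± 0.46, adjusted p = 2.9e-07). AT1G10585, for a helix-loop-helix factor, was at 7.64, 8.26 and 4.1 CPM with LiCl, against 219.8, 98.6 and 125 CPM in control (log2 -4.34 ± 0.49, adjusted p = 2.6e-05). The calcium ATPase-like gene AT3G63380 was at 1.27, 0.118 and 0.113 CPM with LiCl, against 14.2, 58.8 and 9.6 CPM in control (log2 -4.56 ± 0.81). The nuclease gene ENDO2 (log2 -4.12 ± 0.46), the glycosyltransferase gene AT3G46700 (log2 -4.44 ± 0.97), the methyltransferase gene AT4G35160 (log2 -4.09 ± 0.81) and AT5G40348, a non-coding RNA gene (11.3, 1.38 and 1.69 CPM with LiCl, against 153, 113 and 75.3 CPM in control), fell too. Among rises, SIS was at 229, 76.8 and 141 CPM with LiCl, against 7.14, 1.42 and 15.7 CPM in control (log2 4.45 ± 0.86, adjusted p = 0.0021). NADK1, for a kinase that makes NADP from NAD, was at 983, 1019 and 1061 CPM with LiCl, against 57.2, 331 and 57.3 CPM in control (log2 3.3 ± 0.58, adjusted p = 0.00109). FDM1, for a protein of RNA-directed DNA methylation, was at 24.1, 37.6 and 38 CPM with LiCl, against 1.05, 3.33 and 2.91 CPM in control (log2 3.6 ± 0.42, adjusted p = 3.6e-05). NAC036 (log2 3.65 ± 0.67), ZCF37 (log2 3.52 ± 0.45) and AT5G41100 (138, 123 and 137 CPM with LiCl, against 3.19, 16 and 5.91 CPM in control) rose as well. Each of these calls held throughout. Among abundant genes, UBQ11, a polyubiquitin gene with close copies, rose (3479, 3277 and 4238 CPM with LiCl, against 1526, 1223 and 2191 CPM in control; log2 1.19 ± 0.28). ADC2, for arginine decarboxylase of putrescine synthesis, fell throughout (753, 980.4 and 665 CPM with LiCl, against 1989, 2085 and 1599 CPM in control; log2 -1.25 ± 0.30). Genes with values in the LiCl libraries only numbered 625, of which 29 averaged at least 1 CPM, and 672 had values in control only, of which 69 did. The highest of the first kind was NAC3, at 45.4, 1.02 and 1.13 CPM, and the highest of the second was OFP1, at 14.7, 19.7 and 7.39 CPM.

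Whether the same genes moved in other libraries was asked in leaves that also received PAP. PAP + LiCl against PAP alone shares no library with LiCl against control, and called 21.6% of 17603 genes, 9.67% as rises and 12.0% as falls. Of the 684 genes called in all settings of the present comparison, 683 changed in the same direction there and 639 were called, with 0 called the other way. PAP + ATP + LiCl against PAP + ATP, also of separate libraries, called 9.44% of 17661 genes, 4.6% as rises and 4.84% as falls. Here 667 of the 684 changed in the same direction and 406 were called. These comparisons all take the spread of a gene from the same fit. A gene of little spread is thus favoured in each, so the 639 and 406 calls are not independent of the present ones. How many of all genes changed in the same direction was not counted. Of the genes that rose in the present comparison, 477 rose there, which is 37.3% of these and 58.7% of the rises in ATP-fed leaves. Of the falls, 587 were shared, 32.2% and 68.7%. The difference of the LiCl change itself was called in 0 of 17505 genes between PAP-fed and PAP-free leaves by limma and edgeR and in 6 by DESeq2, with 318 at an unadjusted p under 0.05. Between PAP + ATP-fed and nucleotide-free leaves it was called in 3 of 17519, or 0.0171%, with 1 (0.00571%) more positive and 2 (0.0114%) more negative in the PAP + ATP-fed leaves, and in 0 with a pseudocount of 2.

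**Figure D3:**
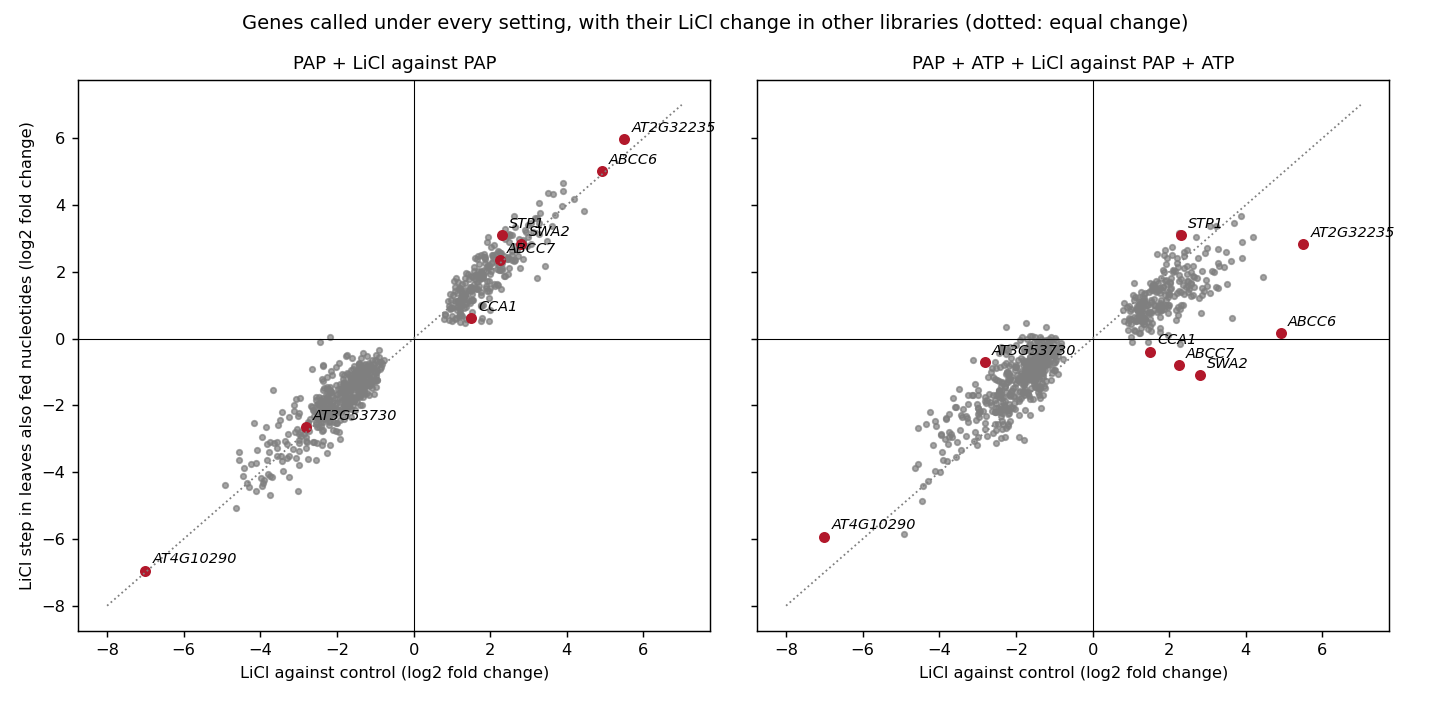
Log2 fold change of LiCl against control (x axis) beside that of PAP + LiCl against PAP (left) and of PAP + ATP + LiCl against PAP + ATP (right) for the 684 genes called in all settings, with 8 genes named in red where they belong to the set. In the left panel 683 of 684 points lie on the same side of 0 in both comparisons; in the right panel ABCC6, ABCC7, SWA2 and CCA1 lie near or below 0.

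ABCC6, an ABC transporter gene of unknown cargo (chr3:4202811-4208261 in TAIR10.1), had the largest such difference. It was at 28.9, 26.8 and 26.3 CPM with LiCl, against 0.333, 0.528 and 0.416 CPM in control, a 30.1-fold rise (log2 4.91 ± 0.50, adjusted p = 1.2e-05). In PAP-fed leaves it stood at 37.6, 72.1 and 56.3 CPM with LiCl, against 0.782, 1.58 and 1.29 CPM without. In PAP + ATP-fed leaves it stood at 4.61, 2.48 and 12.4 CPM with LiCl, against 2.73, 8.66 and 4.17 CPM without, so that the groups overlapped. The LiCl change there differed from that in nucleotide-free leaves by log2 -4.75 ± 0.70, adjusted p = 0.0318. With ATP alone the gene was at 3.47, 1.74 and 7.93 CPM, between the LiCl and control levels. The other 2 genes were AT5G60310, for a lectin-type receptor kinase (4.47, 3.15 and 3.65 CPM with LiCl, against 0.524, 0.69 and 1.34 CPM in control; difference log2 -3.44 ± 0.54, adjusted p = 0.0318), and AT3G53730, an H4 histone gene. The histone gene was at 5.95, 5.27 and 3.72 CPM with LiCl, against 40.1, 39.2 and 33 CPM in control (difference log2 2.11 ± 0.33, adjusted p = 0.0318). ABCC7, a close relative that may share reads with ABCC6 and ends 467 bases before it on the same strand, rose with LiCl alone as given above and changed by log2 -0.80 ± 0.42, adjusted p = 0.262 in PAP + ATP-fed leaves, with a difference that did not pass (log2 -3.05 ± 0.59, adjusted p = 0.138). No group received ATP and LiCl without PAP, so a part of PAP in these differences cannot be told apart.

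The series title concerns RNA polymerase II reading through into neighbouring genes, and a further view was taken of genes that begin just after a stronger gene on the same strand. A tandem neighbour was a gene whose upstream neighbour ends at most 500 bp before it and has at least 10 times its mean CPM. Means were taken over all 21 libraries, those with LiCl included. Tested on both sides were 428 pairs, 2.43% of all genes tested. With LiCl 47 downstream genes rose, or 10.98%, and 29 fell, or 6.78%, beside 7.27% and 10.4% of all genes. Downstream genes are weak by this choice, and a gene could pass the filter through its LiCl libraries alone. All genes were not matched to them for level, so an excess of rises beside all genes was not tested. Rises outnumbered falls at this ratio of CPM but not at a ratio of at least 3, where 77 of 922 rose (8.35%) and 80 fell (8.68%). The median of the 428 downstream genes was 0.10 and that of their upstream partners 0.054. In 34 of the 47 pairs with a rising downstream gene the upstream gene was not called, in 12 it also rose and in 1 it fell. Over all 428 pairs 41 upstream genes rose and 36 fell, so upstream rises were more frequent beside a rising downstream gene. Of the 25 rises of more than 8-fold in the whole comparison 3 were such neighbours, beside 1 of 74 falls of that size. In PAP-fed leaves LiCl was followed by 61 rises and 34 falls among them, and in PAP + ATP-fed leaves by 14 and 26. Rises numbered between 29 and 48 and falls between 16 and 28 with 1 library left out, both lowest without control library 1.

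AT2G32235, the largest rise, lies in such a pair. This gene of unknown function (chr2:13682557-13684248, minus strand, TAIR10.1) begins 50 bp after the end of AT2G32240 (chr2:13684299-13691155), which encodes an endosome antigen-like protein. AT2G32235 was at 78, 37.5 and 65.2 CPM with LiCl, against 0.476, 1.26 and 0.739 CPM in control, a 45.2-fold rise (log2 5.5 ± 0.73, adjusted p = 1.2e-04). AT2G32240 was at 2409, 1608 and 1719.7 CPM with LiCl, against 74.8, 1178 and 425 CPM in control and rose in 9 of the 15 settings (log2 2.49 ± 0.72, adjusted p = 0.025). The downstream gene held 3.24%, 2.33% and 3.79% of the upstream gene's CPM with LiCl, against 0.637%, 0.107% and 0.174% in control. This share was higher in each LiCl library than in any control library. A high share was also seen without LiCl, in ATP library 6, at 31.1 CPM of AT2G32235 and 3.31%. In ATP libraries 4 and 5 the share was 0.307% and 0.615%. The sequence between them (chr2:13684249-13684298, minus strand, 5′ to 3′) is the whole of the gap that a transcript of both genes would cross.
AT2G32240 to AT2G32235: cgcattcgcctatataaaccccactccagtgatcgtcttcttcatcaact
Only RNA assigned to whole genes is in the table, so whether these reads began at the downstream gene's own start or upstream of it was not tested.

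SWA2 (chr1:27268092-27273935, minus strand) begins 32 bp after JAZ6 ends. It rose 7.01-fold, while JAZ6 was not called, at 1691, 1390.0 and 1400.5 CPM with LiCl, against 1852, 1632 and 1121 CPM in control (log2 -0.014 ± 0.30, adjusted p = 0.982). With PAP + ATP its LiCl change was log2 -1.1 ± 0.50, adjusted p = 0.195, and the difference from nucleotide-free leaves did not pass (log2 -3.91 ± 0.71, adjusted p = 0.1). AT1G72530, for a plastid protein of the DAG family, begins 197 bp after LOX4, a lipoxygenase gene. It was at 13.2, 8.89 and 12.1 CPM with LiCl, against 0.857, 0.69 and 0.739 CPM in control (log2 3.22 ± 0.32, adjusted p = 9.8e-06), and LOX4 was at 2041, 1707 and 1663 CPM with LiCl, against 712, 1971 and 506 CPM in control (log2 1.01 ± 0.50, adjusted p = 0.174). AT4G31805 begins 179 bp after WRKY18, was at 15.6, 5.15 and 9.93 CPM with LiCl, against 0.0476, 0.244 and 0.185 CPM in control, and rose together with it (log2 3.91 ± 0.39, adjusted p = 9.8e-06). NRPD7, for a subunit of a plant-specific RNA polymerase, begins 40 bp after the ATP sulfurylase gene APS1. NRPD7 was at 15, 6.77 and 8.8 CPM with LiCl, against 0.857, 1.67 and 1.2 CPM in control and rose throughout (log2 2.57 ± 0.38, adjusted p = 3.0e-04). APS1 was at 1173, 1125 and 1109 CPM with LiCl, against 739, 945 and 709 CPM in control (log2 0.52 ± 0.25, adjusted p = 0.168). All 4 downstream genes rose, and of their upstream genes WRKY18 rose and JAZ6, LOX4 and APS1 were not called.

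**Figure D4:**
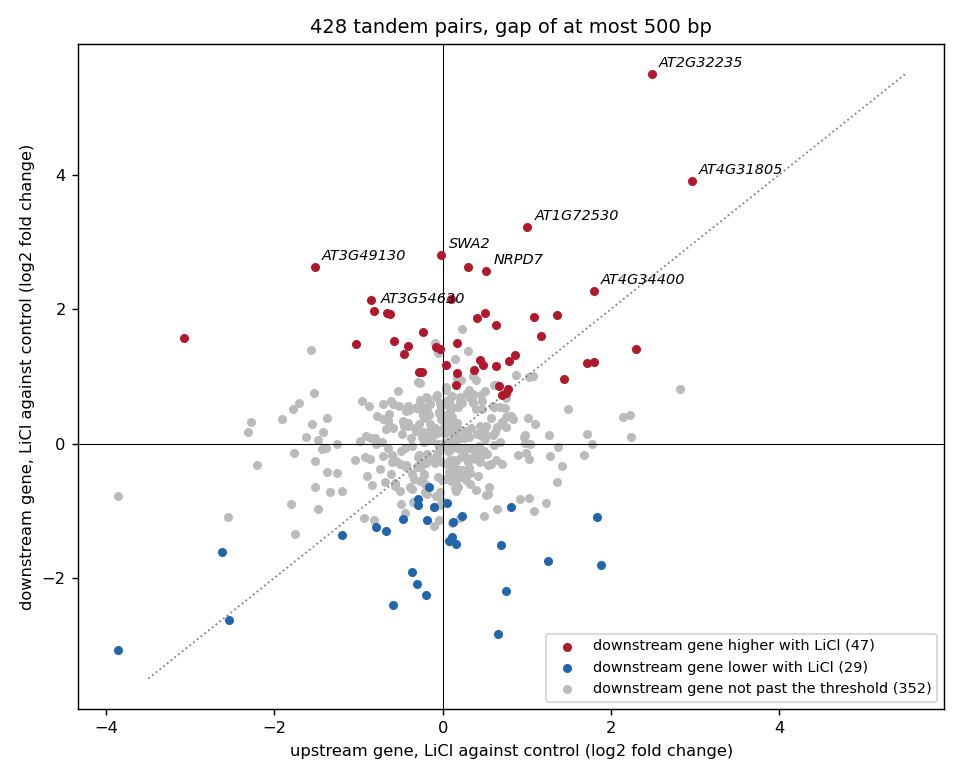
Log2 fold change, LiCl against control, of the upstream gene (x axis) and the downstream gene (y axis) in 428 tandem pairs at most 500 bp apart, coloured by the call of the downstream gene; the dotted line marks equal change. AT2G32235 at 5.5, AT4G31805 at 3.91 and AT1G72530 at 3.22 lie highest, and SWA2 at 2.81 lies above an upstream change of -0.01.

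**Figure D5:**
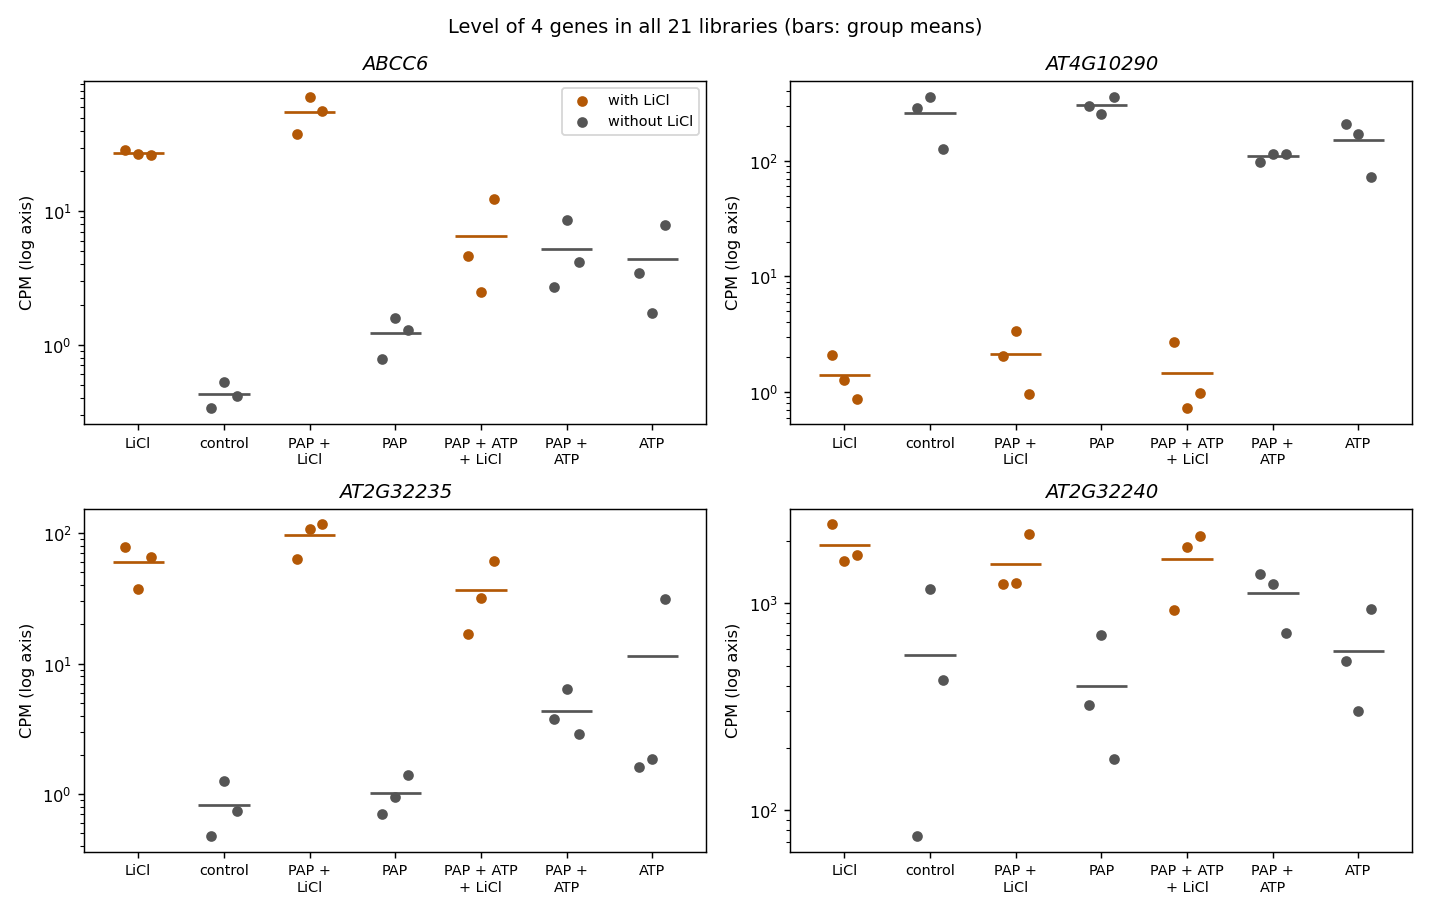
Level in CPM, on log axes, of ABCC6, AT4G10290, AT2G32235 and AT2G32240 in all 21 libraries of 7 groups, orange with LiCl and grey without, with bars at group means. AT4G10290 lies at or below 3.40 CPM in all 9 libraries with LiCl and at or above 72.9 CPM in all 12 without, whereas ABCC6 stands high in LiCl and PAP + LiCl only.

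Markers of leaf cell types were compared as a check of the tissue. Mesophyll markers summed to between 34102 and 61279 CPM with LiCl, against 28270.1 and 52959 CPM in control, and phloem markers to between 756 and 846 CPM, against 612 and 834 CPM. Root, seed, and pollen and flower markers summed to at most 18.9 CPM in any of the 6 libraries. Epidermis markers summed to between 317 and 409 CPM with LiCl, against 502 and 1177 CPM in control, with CER6 the 1 of 4 tested that was called. CER6 is also one of the cuticle falls, and its levels given above make up a large part of this sum. The sum and the cuticle falls are therefore not separate observations, and a part of epidermal cell number in those falls was not tested. Guard cell markers summed to between 629 and 2904 CPM with LiCl, against 762 and 3193 CPM in control, with 0 of 9 called. One member each was called among 8 mesophyll (RCA), 8 phloem (SUC2) and 7 xylem markers (ACL5, log2 2.03 ± 0.64), and 0 of 2 trichome markers. In whole leaves, fewer cells of a type and less RNA per cell cannot be told apart.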

How the data were processed

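The deposited table holds CPM, which the authors made by aligning and counting reads against TAIR10; Subread and featureCounts are named in the submitters' processing notes, without versions. The kit did not keep strand, so overlapping and antisense genes cannot be separated. All CPM values came out as whole reads per gene (tolerance 1e-06), and edgeR 4.0.16 called 3249 genes on those reads. limma 3.58.1 (R 4.3.3, trend) was fitted on log2(CPM + 0.5), so changes of low genes are understated, to all 21 libraries in 7 groups, keeping genes that reached 1 CPM in 3 or more libraries, with Benjamini-Hochberg adjustment at 0.05. Values empty in a whole group were left out. On simulated counts of 17300 genes, 14% of 100 genes changed 2-fold and 71.7% of 99 changed 4-fold were recovered, with 8.60% false calls. That simulation changed far fewer genes than were called here and gave every group the same spread. Its rates therefore do not carry over to the calls above. Of 1300 symbols in 40 pathway lists 1146 were in the table; 113 could not be matched and 41 were not in it. The genes, lists and tandem pairs were chosen with earlier results of these data known. Genes are named by a rule (the 15 largest rises and falls, the 8 most abundant calls, 4 per list), and further ones after their values were seen. Names, coordinates and sequences come from RefSeq's TAIR10.1, which holds 99.0% of the loci. Alternatives used pseudocounts of 0.1 and 2, other filters, scaling, spread models, edgeR, DESeq2 1.42.0, and each library left out.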

Additional observations from a re-analysis of the deposited data

Results flagged for a closer look

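In 3 genes the change with LiCl differed between leaves fed PAP + ATP and leaves fed no nucleotide, by limma's test of the difference with Benjamini-Hochberg adjustment over 17519 genes. For ABCC6 the difference was -4.75 ± 0.70 on the log2 scale (adjusted p = 0.0318), from log2 0.17 ± 0.50, adjusted p = 0.879 with PAP + ATP and log2 4.91 ± 0.50, adjusted p = 1.2e-05 without. For AT5G60310 it was -3.44 ± 0.54 (adjusted p = 0.0318), from log2 -1.75 ± 0.38, adjusted p = 0.00771 with PAP + ATP and log2 1.69 ± 0.38, adjusted p = 0.00573 without. The H4 histone gene AT3G53730 had a difference of 2.11 ± 0.33 (adjusted p = 0.0318), from log2 -0.69 ± 0.23, adjusted p = 0.0696 with PAP + ATP and log2 -2.81 ± 0.23, adjusted p = 3.5e-06 without. At an unadjusted p under 0.05 the difference had 1337 genes. With a pseudocount of 2 in place of 0.5, limma called 0 genes, so none of the 3 calls held there; edgeR called 4 genes and DESeq2 114. Groups of 3 libraries were not examined for single outlying libraries.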

How the results depend on the processing

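The 3102 calls numbered 1162 when only the 6 libraries entered the fit, and between 1754 and 3604 with 1 library left out. Genes that rose numbered 1279, against 377 with the 6 libraries alone, 1978 with DESeq2 and between 605 and 1648 with 1 library left out; genes that fell numbered 1823, against 785 and between 980 and 1956. The lowest totals came without control library 1, LiCl library 11 or LiCl library 12. List members called numbered 223, against 97 with the 6 libraries alone and between 126 and 252 with 1 left out. Tandem neighbours called numbered 76 (47 rises, 29 falls), against 42 at gaps of at most 200 bp (28 and 14) and 157 at a ratio of at least 3 (77 and 80). Calls in PAP + ATP + LiCl against PAP + ATP numbered 1667, and 2690 with DESeq2. The difference between PAP-fed and PAP-free leaves had 0 calls, and 6 with DESeq2. The difference with PAP + ATP had 3, against 0 with a pseudocount of 2, 5 with no filter, 8 with median-of-ratios scaling and 114 with DESeq2. The causes were not tested. Scaling shifted the median of all genes by 0.036 on the log2 scale. With median-of-ratios scaling 1639 genes rose and 1722 fell, so rises made up 48.2% of the calls, against 41.2% without it. The excess of falls over rises thus depends on the scaling, and the shares of all genes set beside the lists are those without it. DREB2A, not called at 0.17, lay between -0.38 and 0.45 with 1 library left out. JAZ6, not called at -0.01, was at 0.025 with median-of-ratios scaling and between -0.22 and 0.14 with 1 library left out. No gene called and printed here reversed in any setting. No paired analysis was possible because the columns carry no replicate numbers.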

Other observations

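Genes were also counted by the product names of the reference, for names shared by at least 20 tested genes; the names given here were chosen after their values were seen. Of 30 genes named as histone superfamily proteins 0 rose and 23 fell, with a median of -1.51 on the log2 scale. Together they summed to 600, 476 and 477 CPM with LiCl, against 1228, 1256 and 937 CPM in control. In PAP-fed leaves 0 rose and 23 fell with LiCl, and in PAP + ATP-fed leaves 0 rose and 3 fell. Of 27 genes for mitochondrial transcription termination factors, which act on organelle genes, 0 rose and 10 fell with LiCl, and 0 rose and 12 fell in PAP-fed leaves. In PAP + ATP-fed leaves limma called 0 and 0 of them, with 0 higher and 2 lower at an unadjusted p under 0.05, and edgeR and DESeq2 called 1 fall each. With 1 library left out the falls numbered between 2 and 10, lowest without LiCl library 12, whereas those of the histone genes numbered between 20 and 24.

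Of 42 genes for intracellular immune receptors of the TIR-NBS-LRR class 13 rose and 0 fell. Their summed level was 1696, 1140 and 1056 CPM with LiCl, against 322, 1249 and 848 CPM in control, so the sums overlapped while 13 single genes were called. In PAP-fed leaves 21 of them rose and in PAP + ATP-fed leaves 7, with 0 falls in both. Rises of these receptor genes numbered between 8 and 16 with 1 library left out, lowest without LiCl library 10 or control library 1. Of 233 genes named as protein kinase superfamily 45 rose and 16 fell, and of 51 genes for UDP-glycosyltransferases 3 rose and 14 fell. Members of these families resemble each other, and reads may be divided between copies. Of 199 genes listed as other RNA 9 rose and 39 fell, with 20 falls without LiCl library 12 and 5 rises without LiCl library 10, 11 or 12 or control library 1. Rises of kinase genes numbered 23 without control library 1 and falls 10 without LiCl library 12, and falls of glycosyltransferase genes numbered 9 without LiCl library 12 or control library 1.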
